A study of Mus musculus with 30 samples.

Results

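The nuclear genes for subunits of respiratory complex I were followed across all 6 groups of a study of cardiac myocytes from mice. The members were every protein-coding gene of the count table whose symbol begins with Ndufa, Ndufb, Ndufc, Ndufs or Ndufv followed by a digit, which leaves out the Ndufaf assembly factors. This gave 37 genes of 52550, and all 37 were among the 15587 genes that passed the filter on low counts. The symbols cover 16 members of the matrix arm, 19 of the membrane arm, and Ndufa4 and Ndufa4l2. Ndufa4 is now counted as a subunit of complex IV and Ndufa4l2 is its paralog, so that 35 members are complex I subunits. Ndufab1, a further subunit of the complex, falls outside the symbol rule and is given separately.

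Complex I takes electrons from NADH, passes them through a flavin and a chain of iron-sulphur clusters to ubiquinone, and pumps protons across the inner mitochondrial membrane. Its matrix arm carries the electron path and is built wholly from nuclear genes, while its membrane arm joins nuclear-encoded subunits to the proton-pumping subunits encoded by the mitochondrial mt-Nd genes. Heart muscle is rich in mitochondria and depends on this complex for most of its oxidative energy supply, so the subunits must be supplied from both genomes.

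Total RNA was sequenced in 30 libraries, 5 in each of 6 groups. Heterozygotes of the genotype Myh6-Cre:DspW/F are haploinsufficient for desmoplakin, a protein of the desmosome, and express Cre recombinase under the Myh6 promoter of cardiac myocytes. The groups, each given by genotype, age and activity, were exercised heterozygotes at 6 months, exercised wild types at 6 months, heterozygotes at 6 months with regular activity, wild types at 6 months with regular activity, heterozygotes at 3 months with regular activity and wild types at 3 months with regular activity. Below, regular-activity libraries are those of 6 months unless 3 months is named. The exercised groups are placed by the series' design text 3 months after endurance treadmill exercise, and whether this counts from the start or the end of the training is not said. Whether wild types carried Cre, and whether each library came from its own animal, is not stated either, so the p-values measure the spread between libraries, which may be technical.

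Libraries held 11232143 to 23710331 counts, and levels are given as counts per 1000000 (CPM) on library sizes scaled by trimmed means (TMM). Mitochondrial transcripts took a median of 28.4% of counts in exercised heterozygotes and 24.6% in exercised wild types, against 18.8% in regular-activity heterozygotes and 16.1% in regular-activity wild types at 6 months, and 9.95% in heterozygotes and 11.8% in wild types at 3 months. Dsp was lower in heterozygotes in all 3 genotype comparisons and was called with exercise (-0.88 on the log2 scale, SE 0.19, adjusted p = 0.0287 in edgeR), whereas without exercise at 6 months (-0.33, adjusted p = 0.657) and at 3 months (-0.50, adjusted p = 0.312) it was not. The library labelled heterozygote 3 at 3 months had 1126 CPM of Dsp, above the 573 to 741 CPM of the other heterozygotes of that age. Wild types 1 and 4 at 3 months had 760 and 752 CPM, beside 1288 to 1299 CPM in the other wild types of that age. At 6 months with regular activity Dsp was 581 to 680 CPM in heterozygotes and 636 to 1021 CPM in wild types, which overlap. All 10 cardiac myocyte markers were detected and summed to 73671 to 119496 CPM per library. Fibroblast markers (10 of 10 detected) summed to 352 to 522 CPM in regular-activity heterozygotes, against 182 to 214 CPM in wild types, and macrophage markers (10 of 10) to 53.4 to 107 CPM, against 19.1 to 35.1 CPM. Xist was high in 1 of 5 libraries of each exercised group, 2 of 5 of each regular-activity group at 6 months and 3 of 5 of each group at 3 months. Of the spike-in entries, 3 held a value in each library at 3 months and 0 in each exercised library. Regular-activity libraries at 6 months had 18 such entries, except wild type 5 with 11. The sample titles name no preparation set. Any difference in preparation between these sets of libraries would be mixed with age or exercise, and it was not tested.

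Levels of the members spanned a wide range, in an order that was much alike in all 6 groups. Scaled to the length of the principal transcript, abundant members in regular-activity wild types at 6 months were Ndufa4 with 652, Ndufb9 with 649 and Ndufb8 with 641 CPM per kb. The lowest were Ndufa4l2 with 8.60 and Ndufb2 with 1.76 CPM per kb. The order of the 37 members by this level matched that of regular-activity wild types with a Spearman coefficient of 0.957 to 0.988 in the other 5 groups, which share genes and transcript lengths. Ndufb2 is uncertain, since its annotated exons overlap those of Gm42420 on the same strand. Ndufb8 likewise overlaps Gm20538, while Gm49356, which overlaps Ndufb9 on the same strand, is not among the counted genes. The strand setting of the counting is not given in the sources used here, so exon overlaps on the opposite strand leave the counts of further members uncertain, among them Ndufa2 (66 bases, with Tmco6), Ndufs3 (85 bases, with Kbtbd4), Ndufb11 (117 bases, with Rbm10), Ndufb6 (257 bases, with Smim27), Ndufs6 (30 bases, with Mrpl36), Ndufs1 (320 bases, with Ino80dos) and Ndufa3 (4 bases, with Tfpt).

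Exercise was the condition with most calls. The threshold for a call was an adjusted p of 0.05 in edgeR's quasi-likelihood test, with Benjamini-Hochberg adjustment over all 15587 genes, and fold changes are exercised over regular activity on a log2 scale with their standard error (SE). In heterozygotes 10 of 37 members fell and 0 rose, where 8.82% of all genes were called, 3.48% lower and 5.34% higher. At an unadjusted p under 0.05 there were 18 lower and 0 higher members, where 22.3% of all genes were below that p, and limma-voom and DESeq2 also called 0 higher. In wild types 8 members fell and 1 rose, where 9.69% of all genes were called, 5.05% lower and 4.64% higher, and at an unadjusted p under 0.05 there were 12 lower and 2 higher, where 22.8% of all genes were below that p. There limma-voom called 9 lower and 3 higher (Ndufa3, Ndufa5 and Ndufs4), and DESeq2 called 10 lower and 2 higher (Ndufa3 and Ndufa5). The median member log2 fold change was -0.30 in heterozygotes and -0.05 in wild types, beside medians over all genes of -0.00 in heterozygotes and 0.01 in wild types. Without regular-activity wild type 4 the wild-type member median was 0.01, and over all libraries left out in turn it ran from -0.10 to 0.01. Called or not, 29 members (78.4%) were lower in heterozygotes, where 50.4% of all genes were lower, and 21 (56.8%) in wild types, where 49.3% were. With 1 library left out these counts ran from 26 to 35 in heterozygotes and from 18 to 27 in wild types. Both groups of calls held Ndufa2, Ndufa7, Ndufs3, Ndufs7, Ndufb7 and Ndufb11, which are 60.0% of the 10 in heterozygotes and 75.0% of the 8 in wild types. In these bulk samples fewer cells of a type and less RNA per cell cannot be told apart. Cardiac myocyte markers had a median log2 fold change with exercise of 0.15 in heterozygotes and 0.14 in wild types, with 2 of 10 called higher in each, while macrophage markers were lower for 9 of 9 tested in heterozygotes (median -0.80) and 5 of 9 in wild types (-0.08), with 0 called in edgeR. Fibroblast markers were lower for 8 of 10 in each (-0.43 in heterozygotes and -0.21 in wild types), and endothelial markers were lower for 9 of 10 in heterozygotes (-0.49) and higher for 8 of 10 in wild types (0.32), also with 0 called in edgeR. Their part in the values was not tested.

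In the matrix arm 5 of 16 members fell in heterozygotes and 5 of 16 in wild types, and 3 of the 7 core subunits did so in each genotype. Ndufs7, a core iron-sulphur subunit at the ubiquinone site (ENSMUSG00000020153, GRCm38 chr10:80249121-80256794), had 310.2, 269, 302, 179 and 261 CPM in exercised heterozygotes, against 357, 441, 352, 405 and 382 CPM in heterozygotes with regular activity. All 5 exercised heterozygotes lay below all 5 others (log2 fold change -0.55 and SE 0.13, adjusted p = 0.00758). In exercised wild types Ndufs7 had 273, 344, 333, 357 and 278 CPM, against 449, 505, 450.4, 506 and 469.9 CPM with regular activity, again without overlap (log2 fold change -0.59 and SE 0.13, adjusted p = 0.00454). Removing trends with GC content and length, a setting chosen after seeing the data, brought its log2 fold change to -0.28 in heterozygotes (adjusted p = 0.139) and -0.31 in wild types (adjusted p = 0.0982), and ended both calls.

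Ndufs3, a core subunit of the arm's stalk toward the membrane (ENSMUSG00000005510, GRCm38 chr2:90894634-90904827), had 174, 167, 176, 115 and 140.2 CPM in exercised heterozygotes, against 215, 205, 199, 205 and 214 CPM with regular activity. The groups did not overlap (log2 fold change -0.43 and SE 0.12, adjusted p = 0.0165). Exercised wild types had 143, 195, 189, 204 and 143 CPM, against 237, 221, 212, 248 and 207 CPM with regular activity (log2 fold change -0.36 and SE 0.11, adjusted p = 0.0389). Here too every exercised library was below every other one, by a margin as small as 204 against 207 CPM. The call in wild types was lost in 12 of 23 alternative analyses.

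Ndufs8, a further core iron-sulphur subunit (ENSMUSG00000059734, GRCm38 chr19:3908863-3912774), fell with exercise in heterozygotes, to 133, 109, 129, 79.2 and 101 CPM, against 160.2, 153, 158, 162 and 194 CPM with regular activity (log2 fold change -0.59 and SE 0.14, adjusted p = 0.00706). The groups were apart, and the call held in all 22 alternatives. In wild types the Ndufs8 log2 fold change was -0.24 (adjusted p = 0.332). Ndufv1, the core subunit that binds NADH and the flavin (ENSMUSG00000037916, GRCm38 chr19:4007384-4012806), fell in wild types, to 355, 513, 472, 520.3 and 518 CPM in exercised libraries, against 749, 760.0, 641, 691 and 598 CPM with regular activity (log2 fold change -0.53 and SE 0.11, adjusted p = 0.00214). Every exercised wild type was lower than every other wild type, and in heterozygotes the Ndufv1 log2 fold change was -0.30 (adjusted p = 0.0911). The wild-type value became -0.31 (adjusted p = 0.0819) once GC and length trends were removed. The core members Ndufs1 and Ndufv2 did not pass the test in either genotype, with log2 fold changes of 0.01 for Ndufs1 and -0.26 for Ndufv2 in heterozygotes, and -0.09 for Ndufs1 and -0.05 for Ndufv2 in wild types.

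Among accessory subunits of the matrix arm, Ndufa7 and Ndufa2 fell in both genotypes. Ndufa7 (ENSMUSG00000041881, GRCm38 chr17:33824572-33838317) had 194, 183, 189.9, 139 and 188 CPM in exercised heterozygotes, against 244, 266, 244, 323 and 329 CPM with regular activity (log2 fold change -0.65 and SE 0.13, adjusted p = 0.000998). Exercised wild types had 221, 206, 206, 198 and 191 CPM, against 303, 275, 263, 369 and 326 CPM with regular activity (log2 fold change -0.59 and SE 0.13, adjusted p = 0.00249). Neither pair of groups overlapped, and the calls held in all 22 alternatives in heterozygotes and all 23 in wild types. Ndufa2, which has a thioredoxin-like fold in human complex I (ENSMUSG00000014294, GRCm38 chr18:36742332-36744557), had 96.0, 77.4, 94.6, 75.9 and 67.4 CPM in exercised heterozygotes, against 114, 132, 121, 128 and 149.9 CPM with regular activity (log2 fold change -0.65 and SE 0.12, adjusted p = 0.000839). It had 74.1, 101, 113, 105 and 91.0 CPM in exercised wild types, against 154, 119.6, 113, 145 and 138 CPM with regular activity (log2 fold change -0.47 and SE 0.12, adjusted p = 0.0120). The groups of each genotype were again apart, in wild types by 112.6 against 112.9 CPM at the closest. Ndufs4 and Ndufs6, 2 accessory subunits of the electron input end, did not pass the edgeR test with exercise, with log2 fold changes of -0.05 and 0.07 in heterozygotes and 0.30 and 0.22 in wild types. In limma-voom Ndufs4 was called higher in wild types.

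**Figure D1:**
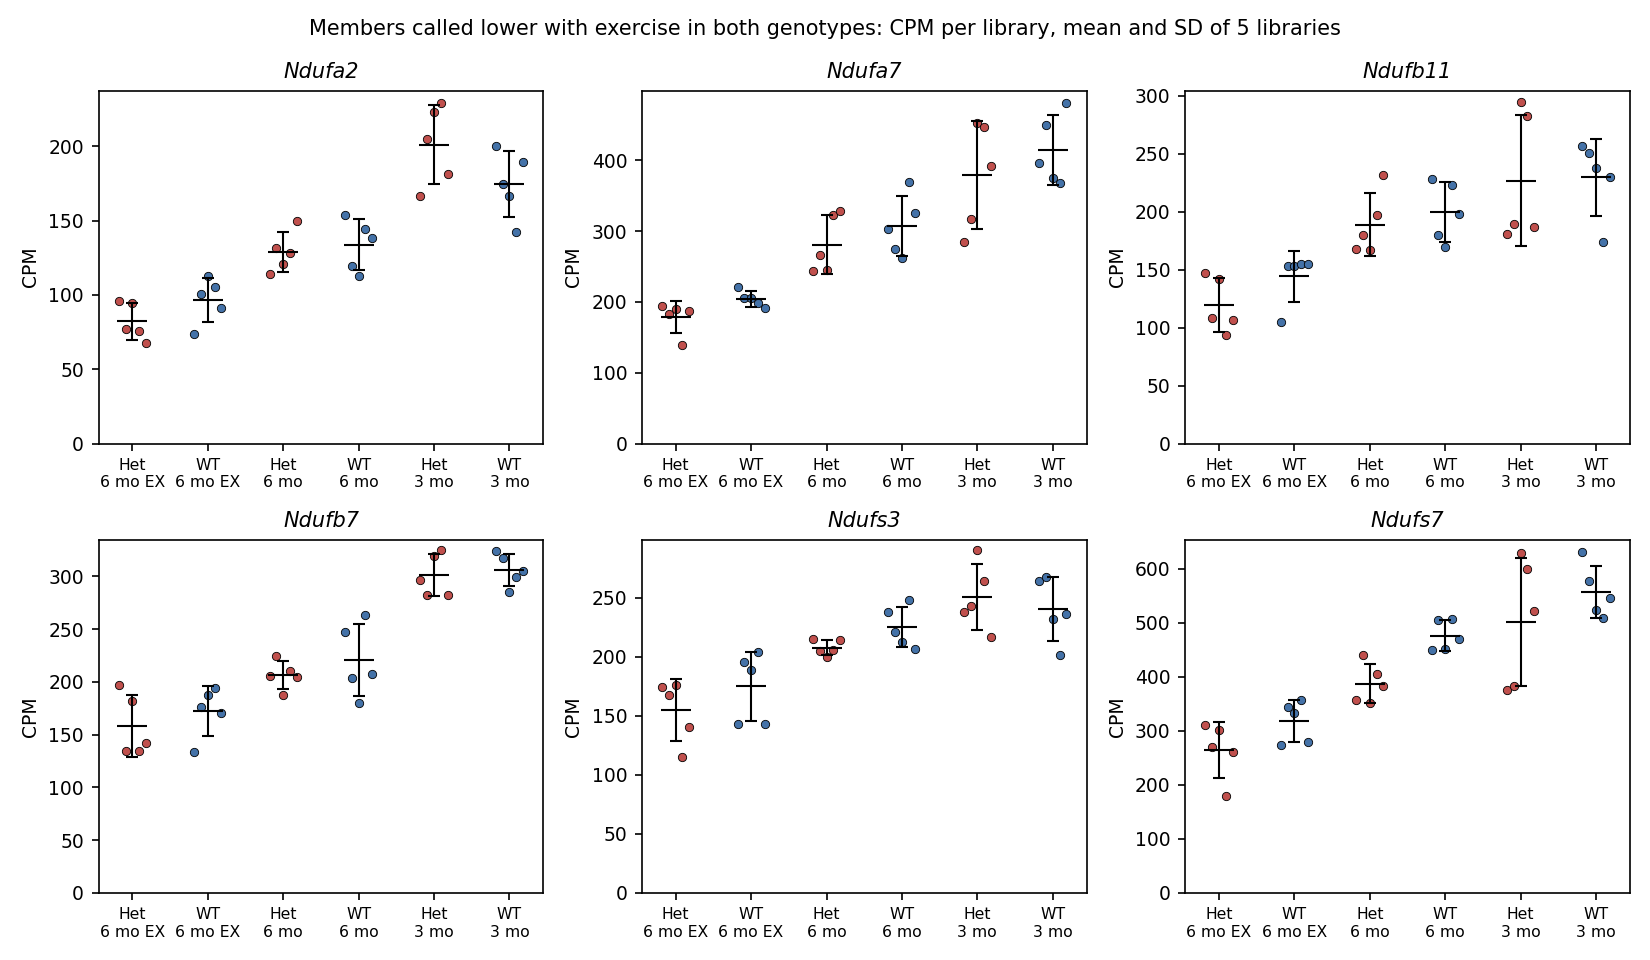
Level in CPM of the 6 members that fell with exercise in both genotypes, in each of the 30 libraries. Points are libraries, bars are the mean and SD of 5 libraries, red is heterozygote and blue wild type, and EX is exercised. For Ndufa7 the exercised heterozygotes lie between 139 and 194 CPM and the exercised wild types between 191 and 221 CPM, below all other libraries.

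In the membrane arm 5 of 19 members fell in heterozygotes, and 3 of 19 fell and 1 rose in wild types. Ndufb11, an X-linked accessory subunit (ENSMUSG00000031059, GRCm38 chrX:20615326-20617619), had 147, 108, 142, 93.7 and 107 CPM in exercised heterozygotes, against 167, 180.0, 167, 197 and 232 CPM with regular activity (log2 fold change -0.66 and SE 0.15, adjusted p = 0.00461). It had 105, 153, 153, 155 and 155 CPM in exercised wild types, against 228, 180.2, 169, 223 and 198 CPM with regular activity (log2 fold change -0.47 and SE 0.15, adjusted p = 0.0421). No groups overlapped, but the wild-type call was lost in 15 of 23 alternatives, one of them without the low library, exercised wild type 1. Ndufb7, an accessory subunit facing the intermembrane space (ENSMUSG00000033938, GRCm38 chr8:83566671-83571626), had 197, 134, 182, 135 and 142 CPM in exercised heterozygotes, against 205, 225, 187, 210.1 and 204 CPM with regular activity (log2 fold change -0.39 and SE 0.11, adjusted p = 0.0272). Exercised wild types had 133, 176, 187, 194 and 170.1 CPM, against 248, 203, 180.2, 264 and 207 CPM with regular activity (log2 fold change -0.36 and SE 0.11, adjusted p = 0.0399). The Ndufb7 groups overlapped in both genotypes, and with GC and length trends removed its log2 fold change was -0.18 in both (adjusted p = 0.319 in heterozygotes and 0.336 in wild types).

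Further membrane arm members were called in a single genotype. Ndufb6 (ENSMUSG00000071014, GRCm38 chr4:40270591-40279421) fell in wild types, to 37.4, 55.4, 49.5, 46.5 and 46.5 CPM, against 66.7, 62.5, 60.5, 87.0 and 73.9 CPM with regular activity (log2 fold change -0.57 and SE 0.15, adjusted p = 0.0104). Its exercised wild types were all below the others, and in heterozygotes its log2 fold change was -0.44 (adjusted p = 0.0597). Ndufb8 (ENSMUSG00000025204, GRCm38 chr19:44548572-44555440) fell in heterozygotes, to 378, 316, 300.4, 201 and 273 CPM, against 402, 425, 372, 435 and 442 CPM with regular activity (log2 fold change -0.50 and SE 0.12, adjusted p = 0.00766). Ndufb9 (ENSMUSG00000022354, GRCm38 chr15:58933756-58939488) fell there to 400.4, 353, 434, 261 and 318 CPM, against 425, 428, 422, 474 and 611 CPM (log2 fold change -0.42 and SE 0.12, adjusted p = 0.0203). In each, 1 exercised library reached into the regular-activity range. Ndufc1, which with Ndufb7 falls outside the naming rule in this comparison and was chosen after its values were seen, also fell in heterozygotes (log2 fold change -0.40 and SE 0.13, adjusted p = 0.0411).

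The single member called higher in edgeR was Ndufa3, an accessory subunit of the membrane arm (ENSMUSG00000035674, GRCm38 chr7:3617373-3620327). It had 263, 337, 329, 312 and 303 CPM in exercised wild types, against 253, 185, 187, 274 and 240.1 CPM with regular activity (log2 fold change 0.44 and SE 0.13, adjusted p = 0.0337). The groups overlapped, since exercised wild type 1 lay below regular-activity wild type 4, and the call was lost in 10 of 23 alternatives. In heterozygotes Ndufa3 did not pass the test, with 278, 270.4, 295, 162 and 258 CPM in exercised libraries and 218, 195, 209.5, 235 and 263 CPM with regular activity (log2 fold change 0.17, adjusted p = 0.506). Ndufc2 had log2 fold changes of -0.57 in heterozygotes and -0.57 in wild types but just missed the threshold (adjusted p = 0.0610 in heterozygotes and 0.0580 in wild types). Ndufa5, a matrix arm member, was not called in edgeR. In wild types limma-voom, DESeq2 and the fit of only the groups compared called it higher. It had 141, 153.6, 172, 174.6 and 158 CPM in exercised wild types, against 139.3, 99.6, 87.1, 132 and 119.5 CPM with regular activity, without overlap. Ndufc2 and Ndufa5 are named after their values were seen. The log2 fold change of Ndufa4 was -0.31 and that of Ndufa4l2 -0.56 in heterozygotes, against -0.09 for Ndufa4 and 0.10 for Ndufa4l2 in wild types, none called, and Ndufab1 was at -0.05 in both genotypes.

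Single libraries set part of these counts. In heterozygotes the count of calls became 16 without exercised heterozygote 1, and 7 without exercised heterozygote 4. In wild types the calls of falling members became 5 without regular-activity wild type 1 or 4 or exercised wild type 1 or 5. The mitochondrial share of counts was higher in the exercised groups, as given above. With mitochondrial and the 10 most abundant other transcripts removed before scaling, 11 members fell in heterozygotes, and 6 fell and 1 rose in wild types. With Xist as a covariate 13 fell in heterozygotes, and 9 fell and 1 rose in wild types. Ndufa2 and Ndufa7 were called lower in both genotypes in every one of the 13 alternative analyses at the 0.05 threshold, not counting those that leave out 1 library. Among the 13 were a fit of only the groups compared and fits without named pairs or trios of libraries.

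**Figure D2:**
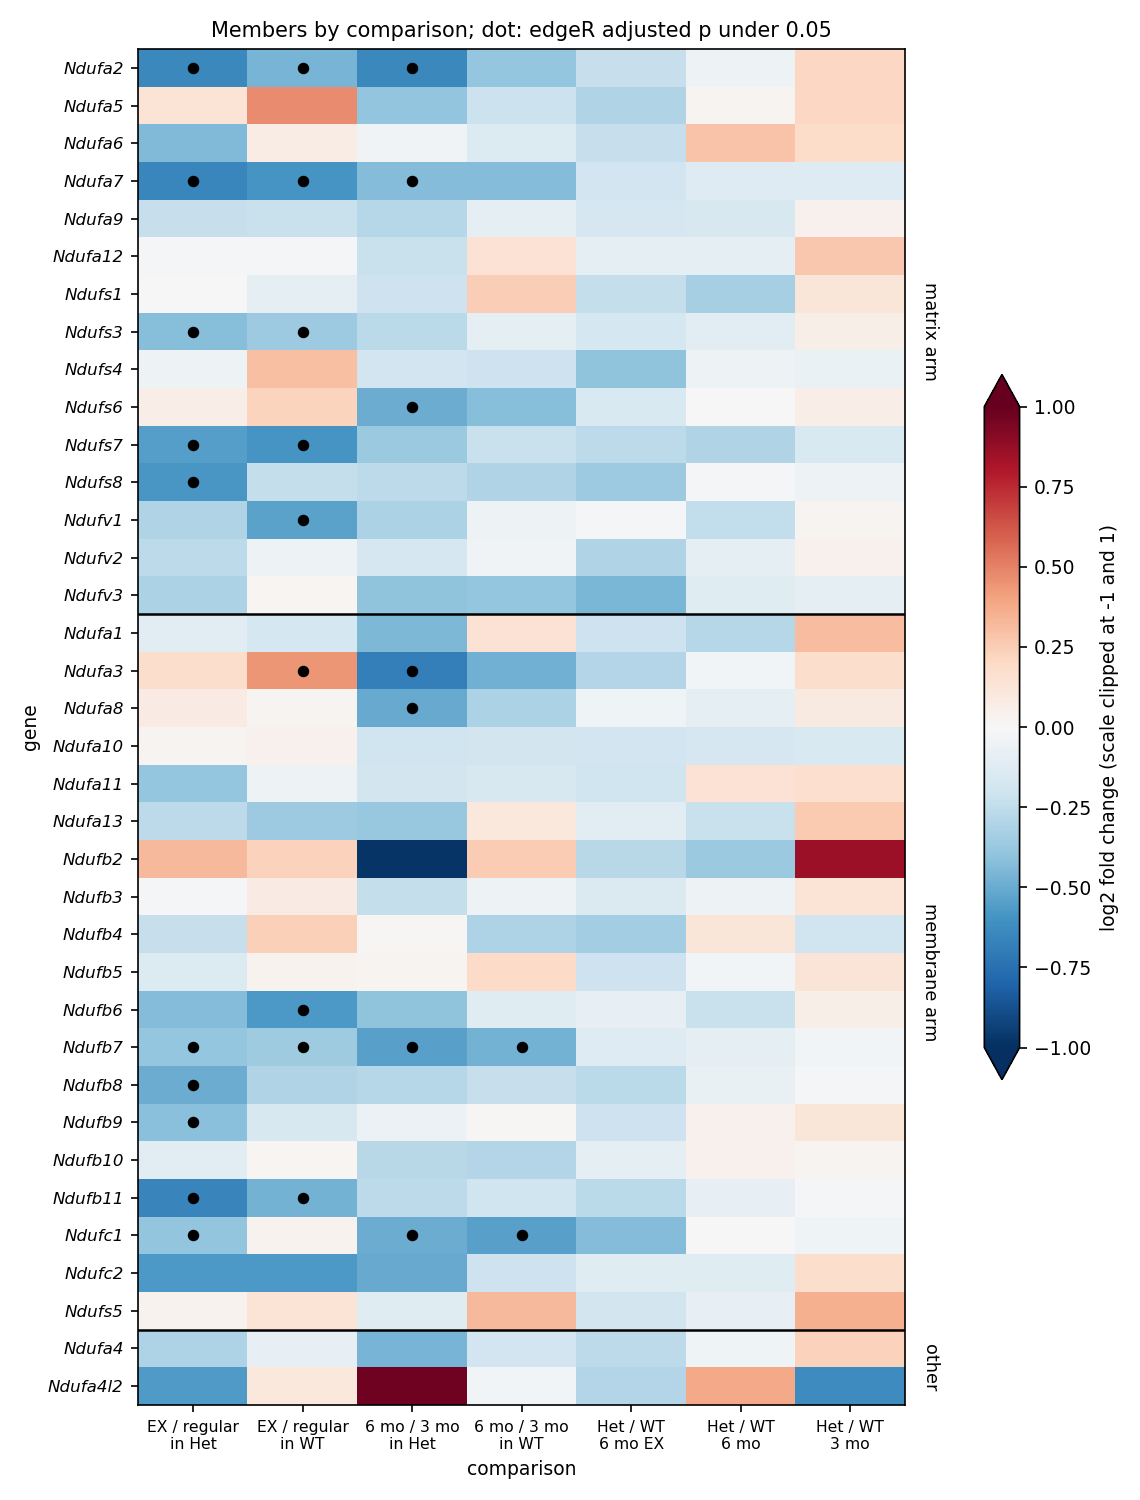
Log2 fold change of 36 members (down the page, by arm of the complex) in 7 comparisons (across), blue for lower and red for higher in the group named first, with black dots for edgeR adjusted p under 0.05. The dots gather in the exercise and age comparisons, with 10 in exercised against regular-activity heterozygotes and none in the 3 genotype comparisons.

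The windows around the start sites of members that moved with exercise are shown for 4 members that fell in both genotypes and for the one that edgeR called higher, since regulators of mitochondrial genes are known to bind near start sites. RefSeq windows (GRCm38.p6, 250 bases before to 50 after the start) matched 32 of the 37 members, of which the first listed window was used. Both strands were searched for GCGCA and GCGC parted by any 1 base, a core of the nuclear respiratory factor NRF1 motif, CCGGAAG for ETS factors such as GABP, AAGGTCA for oestrogen-related receptors (ERR) and AANATGGC for YY1. The windows below run 5' to 3' on the gene's strand, with matches in capitals.
Ndufs3 (chr2:90904672-90904971, minus strand): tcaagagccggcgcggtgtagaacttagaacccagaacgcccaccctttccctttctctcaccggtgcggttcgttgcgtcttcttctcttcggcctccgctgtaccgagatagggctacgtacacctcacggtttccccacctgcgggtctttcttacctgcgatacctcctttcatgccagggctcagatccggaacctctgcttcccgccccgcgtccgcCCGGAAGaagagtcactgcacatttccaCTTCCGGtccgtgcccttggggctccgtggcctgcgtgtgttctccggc
Ndufs7 (chr10:80249199-80249498, plus strand): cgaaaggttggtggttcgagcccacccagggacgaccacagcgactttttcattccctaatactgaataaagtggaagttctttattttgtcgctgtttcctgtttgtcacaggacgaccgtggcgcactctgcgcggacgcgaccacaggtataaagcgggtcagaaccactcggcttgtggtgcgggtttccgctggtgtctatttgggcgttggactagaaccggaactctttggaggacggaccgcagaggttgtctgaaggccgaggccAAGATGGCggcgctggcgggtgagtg
Ndufb7 (chr8:83566508-83566807, plus strand): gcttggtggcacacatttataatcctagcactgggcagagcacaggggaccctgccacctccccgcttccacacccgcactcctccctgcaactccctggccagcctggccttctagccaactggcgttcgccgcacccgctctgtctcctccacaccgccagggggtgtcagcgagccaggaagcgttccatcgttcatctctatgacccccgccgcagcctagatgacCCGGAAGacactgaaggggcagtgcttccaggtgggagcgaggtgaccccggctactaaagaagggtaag
Ndufb11 (chrX:20617570-20617869, minus strand): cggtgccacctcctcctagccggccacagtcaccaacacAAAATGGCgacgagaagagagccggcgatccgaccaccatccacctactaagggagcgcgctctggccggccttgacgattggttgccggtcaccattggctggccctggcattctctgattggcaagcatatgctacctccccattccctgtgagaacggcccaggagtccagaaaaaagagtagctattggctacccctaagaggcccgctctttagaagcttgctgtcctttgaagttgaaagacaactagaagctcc
Ndufa3 (chr7:3617123-3617422, plus strand): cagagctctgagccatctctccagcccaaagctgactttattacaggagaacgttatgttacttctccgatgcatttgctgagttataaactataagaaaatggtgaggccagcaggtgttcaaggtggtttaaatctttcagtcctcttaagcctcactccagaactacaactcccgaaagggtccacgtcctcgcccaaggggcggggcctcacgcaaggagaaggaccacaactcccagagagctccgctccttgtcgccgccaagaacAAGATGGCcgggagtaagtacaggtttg

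Ndufs3 has 2 ETS matches, at positions -27 and 1 from the start, and Ndufb7 has an ETS match at -20. The YY1 core lies at 24 in Ndufs7, at -211 in Ndufb11 and at 22 in Ndufa3, the member that edgeR called higher in wild types. Ndufa7 has 2 listed windows, of which the first holds none of the 4 cores and the second a YY1 core. Over all matched members, YY1 cores were in 11 of 32 windows (34.4%, beside 6.23% of 27025 genes), NRF1 cores in 7 (21.9%, beside 4.78%), ETS cores in 4 (12.5%, beside 9.12%) and ERR cores in 3 (9.38%, beside 4.66%). Member windows were richer in GC (median 59.0%) than those of all genes (52.7%). No match overlapped another in the 5 windows shown, and a match describes letters, not binding.

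The mitochondrially encoded subunits of the same complex moved the other way with exercise. All 7 mt-Nd genes rose in wild types, with a median log2 fold change of 1.67, and 6 of 7 rose in heterozygotes, with a median of 1.17. The smallest p values were those of mt-Nd6 in heterozygotes (1.90, SE 0.33, adjusted p = 0.000658) and mt-Nd5 in wild types (1.43, SE 0.23, adjusted p = 0.000153), and mt-Nd1 in heterozygotes missed the threshold (0.95, adjusted p = 0.0529). The count of calls was 5 in wild types without exercised wild type 1. In heterozygotes it was 3 without any one of regular-activity libraries 1, 2 and 4 and exercised libraries 1, 2 and 5, and 7 without exercised heterozygote 4.

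Summed over the 37 members, exercised heterozygotes had 9329, 7856, 9103, 5965 and 7739.8 CPM (in libraries 1 to 5), against 8995, 9599, 8675, 9894 and 10608 CPM with regular activity. Exercised wild types had 8144, 9942, 9899.6, 10068 and 8510.0 CPM, against 11220.2, 9818, 9007, 11775 and 10052 CPM with regular activity. The lowest sum of all was that of exercised heterozygote 4, and groups overlapped in both genotypes. The summed mt-Nd transcripts averaged 61545 ± 19700 CPM in exercised and 28370 ± 10906 CPM in regular-activity heterozygotes, and 57474 ± 34052 CPM in exercised and 20842 ± 2227 CPM in regular-activity wild types (SD, n = 5 each). Exercised wild type 1 raised its group's mean, with 117940 CPM beside 36121.7 to 46457.5 CPM in the other exercised wild types. The nuclear sum over the mt-Nd sum was then 0.138 ± 0.038 in exercised and 0.388 ± 0.179 in regular-activity heterozygotes, and 0.196 ± 0.072 in exercised and 0.501 ± 0.065 in regular-activity wild types. No exercised library overlapped a regular-activity one of its genotype in this ratio. These sums are a description with no test, and the mitochondrial share of each library is part of the ratio.

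**Figure D3:**
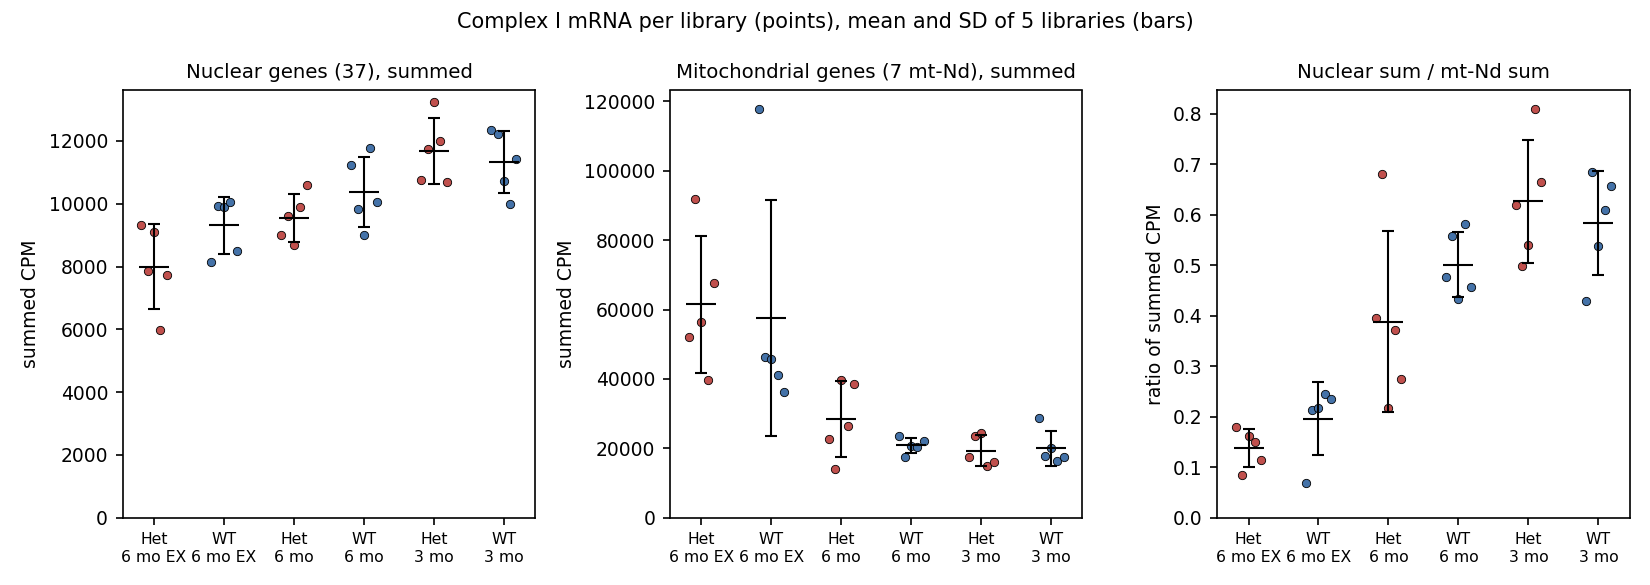
Summed CPM of the 37 nuclear members (left), summed CPM of the 7 mt-Nd genes (middle) and their ratio (right) in each library, with mean and SD of 5 libraries. The ratio is between 0.0691 and 0.244 in the 10 exercised libraries and at least 0.429 in all 10 libraries at 3 months. In regular-activity libraries at 6 months it is 0.218 to 0.681 in heterozygotes and 0.434 to 0.581 in wild types. The lowest of these heterozygotes thus lies within the range of exercised wild types.

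Assembly factors and other respiratory complexes held some members that fell with exercise as well. Of 16 assembly factors 2 fell in each genotype. They were Ndufaf8, a partner of Ndufaf5 in human cells (-1.07 in heterozygotes, adjusted p = 2.97e-05, and -1.05 in wild types, adjusted p = 3.44e-05), and Tmem70, which also serves the ATP synthase (-0.43 in heterozygotes, adjusted p = 0.0325, and -0.53 in wild types, adjusted p = 0.00799). In complex II 2 of 4 fell in heterozygotes and 3 of 4 in wild types, led by Sdhd (-0.42 in heterozygotes and -0.58 in wild types). In complex III 3 of 9 fell in heterozygotes, and 3 fell and 2 rose in wild types. Uqcrfs1, the iron-sulphur subunit, fell in both (-0.80 in heterozygotes and -0.91 in wild types), and Uqcrb rose in wild types (0.88). In complex IV 2 of 13 fell and 1 rose in each genotype, and in complex V 3 of 15 fell in each. Among 14 regulators 4 rose and 1 fell in heterozygotes, and 3 rose and 1 fell in wild types. Ppargc1a, a coactivator of mitochondrial genes, rose in both (0.83, adjusted p = 0.0360, in heterozygotes and 1.04, adjusted p = 0.00827, in wild types), as did Esrrg, an oestrogen-related receptor (0.64 in heterozygotes and 0.41 in wild types). Esrra, the related receptor, fell in wild types (-0.46, adjusted p = 0.00888) and was at 0.01 in heterozygotes.

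These list counts moved with single libraries. For regulators the count called higher ran from 1 to 4 in heterozygotes (1 without regular-activity or exercised heterozygote 5, and 2 without regular-activity 4 or exercised 1 or 2), and from 1 to 3 in wild types (1 without regular-activity wild type 2, 4 or 5 or exercised wild type 3 or 4). The 1 called lower in heterozygotes was lost without regular-activity heterozygote 1, 2 or 4 or exercised heterozygote 4 or 5. For complex II in heterozygotes both calls were lost without regular-activity or exercised heterozygote 4. For complex III in heterozygotes 5 fell without exercised heterozygote 1, and 2 fell and 2 rose without exercised heterozygote 4. In wild types 1 in place of 2 rose in complex III without regular-activity wild type 3, and 1 rose in complex V without exercised wild type 1. The count of falling members in wild types ran from 2 to 4 in complex V and from 2 to 3 in complex II. For complex IV the rise was lost in heterozygotes without regular-activity heterozygote 1, 2 or 3 or exercised heterozygote 1, 2, 3 or 5, and in wild types without regular-activity wild type 2 or 3 or exercised wild type 1 or 2. In the same list 1 in place of 2 fell in wild types without regular-activity wild type 1, 4 or 5 or exercised wild type 2, 4 or 5. For assembly factors in heterozygotes 1 in place of 2 fell without regular-activity heterozygote 1 or 5 or exercised heterozygote 4.

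**Figure D4:**
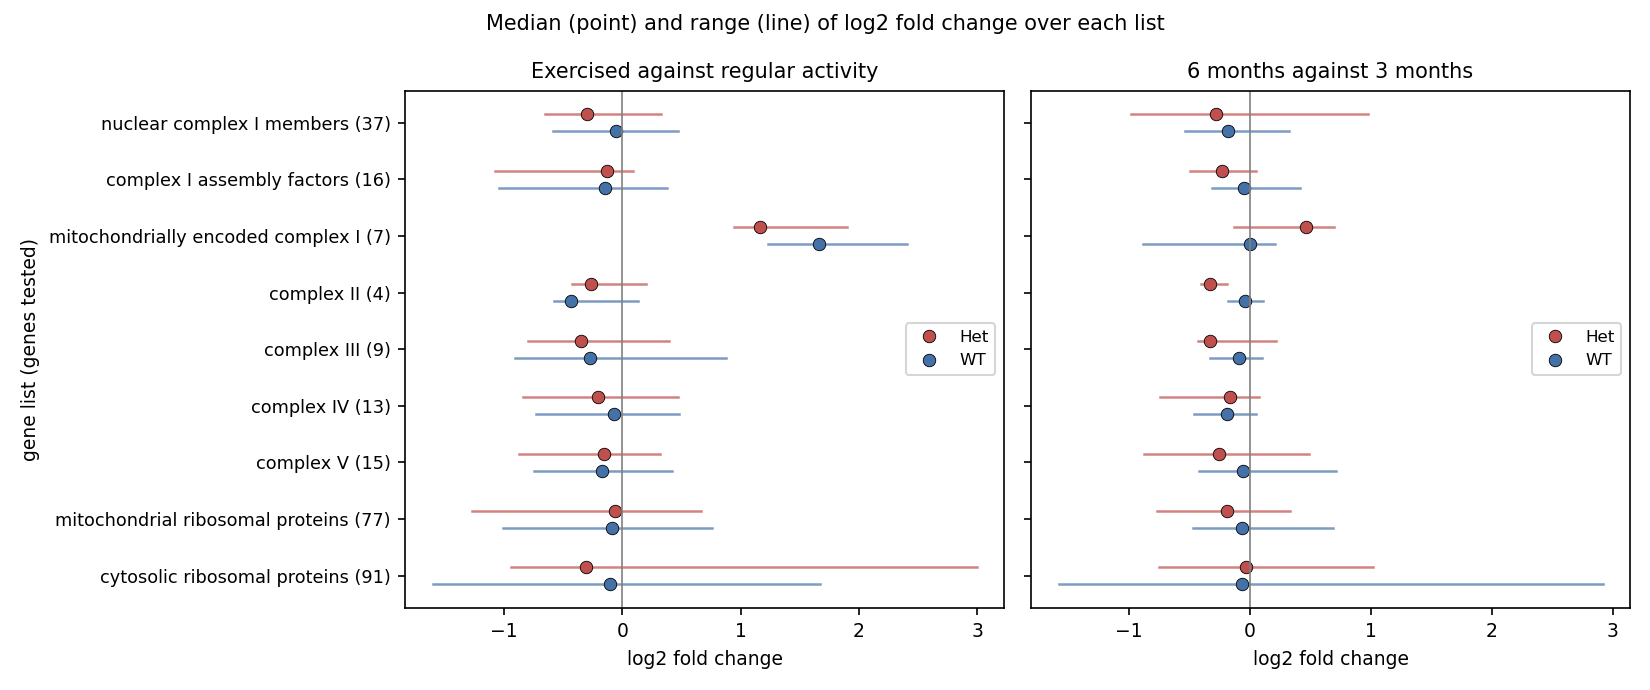
Median (point) and range (line) of the log2 fold change over each gene list for exercised against regular activity (left) and 6 against 3 months (right), in heterozygotes (red) and wild types (blue). With exercise the mt-Nd list lies wholly above 0 in both genotypes, while the median of the nuclear members is -0.30 in heterozygotes and -0.05 in wild types.

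Between 3 and 6 months with regular activity, members were mostly lower at the later age. In heterozygotes 7 of 37 members fell, where 3.43% of all genes were called, 1.46% higher and 1.96% lower, and in wild types 2 fell, where 0.86% were called, 0.398% higher and 0.462% lower. In edgeR 0 rose, while at an unadjusted p under 0.05 there were 1 higher and 21 lower members in heterozygotes, where 19.6% of all genes were below that p, and 0 higher and 10 lower in wild types, where 12.2% were. In limma-voom and DESeq2 1 member, Ndufa4l2, rose in heterozygotes and 0 in wild types. The median member log2 fold change, 6 over 3 months, was -0.28 in heterozygotes and -0.19 in wild types, beside -0.02 in heterozygotes and 0.01 in wild types over all genes. Lower were 34 members in heterozygotes (91.9%, beside 52.2% of all genes) and 28 in wild types (75.7%, beside 48.4%). With 1 library left out these counts ran from 33 to 36 in heterozygotes and from 26 to 30 in wild types. The wild-type median was -0.09 without wild type 2 at 6 months and -0.12 without wild type 3 at 6 months. Markers of cell types moved with age as well. In heterozygotes fibroblast markers were higher for 10 of 10 (4 called, median log2 fold change 1.48) and summed to 352 to 522 CPM at 6 months, against 116 to 189.8 CPM at 3 months. Macrophage markers were higher for 9 of 9 tested (4 called, 1.46), with sums of 53.4 to 107 CPM against 13.6 to 29.9 CPM, and endothelial markers for 10 of 10 (3 called, 1.08), with sums of 431 to 900.4 CPM against 291 to 321 CPM. Cardiac myocyte markers were lower for 10 of 10 (2 called, -0.26), with sums of 73671 to 96650.4 CPM against 91169.7 to 108997 CPM. In wild types the medians were -0.27 for myocyte, 0.31 for fibroblast, 0.19 for macrophage and 0.10 for endothelial markers, with 0 called in edgeR. No marker of these 4 lists was at 0 in a group, and their part in the members' values was not tested. The regular-activity groups are also the ones that exercise was set against, so these values and the exercise values share libraries.

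Ndufb7 was called in both genotypes. It had 205, 225, 187, 210.1 and 204 CPM at 6 months and 296, 283, 319, 325 and 282 CPM at 3 months in heterozygotes, without overlap (log2 fold change -0.55 and SE 0.11, adjusted p = 0.00465). In wild types it had 248, 203, 180.2, 264 and 207 CPM at 6 months and 324, 317, 285, 299 and 305 CPM at 3 months, also apart (log2 fold change -0.47 and SE 0.11, adjusted p = 0.0314), a value that became -0.32 (adjusted p = 0.162) once GC and length trends were removed. Ndufc1, an accessory subunit beside mt-Nd2 in the membrane arm (ENSMUSG00000037152, GRCm38 chr3:51404677-51408988), had 73.0, 59.9, 61.2, 80.0 and 71.1 CPM at 6 months and 113, 108, 89.9, 88.9 and 102 CPM at 3 months in wild types (log2 fold change -0.54 and SE 0.12, adjusted p = 0.0271). The wild-type groups did not overlap. In heterozygotes it had 66.9, 67.5, 57.5, 82.4 and 71.1 CPM at 6 months and 82.4, 84.7, 112, 115 and 93.3 CPM at 3 months, the groups meeting at 82.4 CPM (log2 fold change -0.50 and SE 0.12, adjusted p = 0.0223).

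Other calls with age were in heterozygotes. Ndufa2 had 114, 132, 121, 128 and 149.9 CPM at 6 months and 167, 205, 223, 229.6 and 182 CPM at 3 months (log2 fold change -0.64 and SE 0.12, adjusted p = 0.00193). Ndufa3 had 218, 195, 209.5, 235 and 263 CPM at 6 months and 381, 424, 321, 379 and 292 CPM at 3 months (log2 fold change -0.68 and SE 0.13, adjusted p = 0.00301). Both were lower in every 6-month library than in every 3-month one. Ndufs6, which helps complete the electron input end (-0.50, adjusted p = 0.0215), Ndufa8, which faces the intermembrane space (-0.50, adjusted p = 0.0291), and Ndufa7 (-0.43, adjusted p = 0.0492) also fell, with overlapping groups. The call of Ndufa7 was lost in 16 of 22 alternatives. In wild types the log2 fold changes of these 5 were -0.38 for Ndufa2, -0.48 for Ndufa3, -0.43 for Ndufs6, -0.32 for Ndufa8 and -0.43 for Ndufa7, none called.

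The largest fold changes with age in heterozygotes belonged to the 2 least abundant members and missed the threshold. Ndufa4l2 had 8.72, 7.47, 15.8, 10.5 and 9.75 CPM at 6 months and 4.88, 3.16, 5.86, 5.92 and 6.67 CPM at 3 months (log2 fold change 0.98 and SE 0.29, adjusted p = 0.0545), without overlap. Ndufb2 had 6.60, 4.78, 5.93, 5.70 and 6.60 CPM at 6 months and 23.6, 14.8, 8.88, 2.82 and 7.92 CPM at 3 months (log2 fold change -0.98 and SE 0.31, adjusted p = 0.0680), and its spread at 3 months came mostly from heterozygotes 1 and 2. Both are named here after their values were seen. Ndufab1, the subunit outside the rule, went up with age in wild types (0.74, SE 0.14, adjusted p = 0.00496) and was at 0.34 in heterozygotes (adjusted p = 0.177). In edgeR, limma-voom and DESeq2 0 of 7 mt-Nd genes were called with age in either genotype, and at an unadjusted p under 0.05 there was 1 higher in heterozygotes and 1 lower in wild types. Of the regulators, Esrra (-0.61, adjusted p = 0.00170), Polrmt, the mitochondrial RNA polymerase (-0.53, adjusted p = 0.0254), and Perm1 (-0.42, adjusted p = 0.0281) fell with age in heterozygotes, and 0 were called in wild types in edgeR, limma-voom or DESeq2, beside 1 higher and 4 lower at an unadjusted p under 0.05. Of the assembly factors Tmem186 fell in heterozygotes (-0.50, adjusted p = 0.0353). Leaving out 1 library left 1 of the 3 regulators without heterozygote 4 at 3 months or heterozygote 1, 3 or 5 at 6 months, and ended the Tmem186 call without heterozygote 4 or 5 at 3 months or 3, 4 or 5 at 6 months.

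The age calls rested on few libraries. In heterozygotes 3 of the 7 calls (Ndufa2, Ndufa3 and Ndufb7) were left without the library labelled heterozygote 3 at 3 months. Dsp in that library, 1126 CPM, lay within the 752 to 1299 CPM of wild types of that age. The same 3 calls were left without regular-activity heterozygote 1 or 3 at 6 months. In wild types 0 or 1 call was made when any one of 8 of the 10 libraries was left out, and 0 calls were made without the 3 wild-type libraries that held both Xist and Y-linked transcripts.

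Heterozygotes against wild types gave 0 calls among the members in edgeR and DESeq2 at either age or activity, and in limma-voom 1 each at 6 months with (Ndufc1) and without exercise (Ndufs1). With exercise 0 of 37 members were called, where 0.404% of all genes were (0.225% higher and 0.18% lower), and all 37 were lower in heterozygotes, with a median log2 fold change, heterozygote over wild type, of -0.21 beside -0.01 over all genes. At an unadjusted p under 0.05 there were 8 members, all lower, where 9.78% of all genes were below that p in either direction. Of all genes 51.4% were lower. The members are not replicates, since all were read in the same 10 libraries, and without exercised heterozygote 4, which had the lowest sum, 33 of 37 were lower with a median of -0.15. Cardiac myocyte markers had a median of -0.19, with 6 of 10 lower, fibroblast markers were higher for 10 of 10 (0.61), macrophage markers for 8 of 9 tested (0.63), and endothelial markers were lower for 9 of 10 (-0.37), with 0 called in edgeR. Their part in the values was not tested.

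The smallest p with exercise was that of Ndufc1, with 56.3, 53.8, 58.2, 42.1 and 52.0 CPM in heterozygotes, against 60.0, 81.1, 76.5, 81.4 and 55.1 CPM in wild types (log2 fold change -0.43 and SE 0.13, adjusted p = 0.126). The groups overlapped through wild type 5, and Ndufc1 was the single member called when that library was left out. Ndufv3, an accessory subunit next to the flavin site (ENSMUSG00000024038, GRCm38 chr17:31520115-31531331), had 282, 229.9, 245, 174 and 219 CPM in exercised heterozygotes, against 318, 354, 337, 340.5 and 232 CPM in exercised wild types (log2 fold change -0.46 and SE 0.14, adjusted p = 0.175). Ndufs4, whose loss in mice gives an encephalopathy like Leigh syndrome (log2 fold change -0.40 and SE 0.15, adjusted p = 0.298), and Ndufs8 (log2 fold change -0.36 and SE 0.14, adjusted p = 0.334) came next. Ndufv1, at -0.02, differed least.

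At 6 months with regular activity 0 of 37 members were called, where 0.135% of all genes were (0.0321% higher and 0.103% lower). In heterozygotes 29 members were lower (78.4%, beside 50.5% of all genes), and 21 to 33 when 1 library was left out. The member median was -0.09 beside -0.00 over all genes. That median was -0.02 without wild type 4, -0.05 without wild type 1, -0.04 without heterozygote 3 and -0.14 without wild type 3. At an unadjusted p under 0.05 there were 4 members, all lower, where 8.79% of all genes were below that p. Ndufs1, the largest core subunit and carrier of several iron-sulphur clusters (ENSMUSG00000025968, GRCm38 chr1:63143596-63176833), had 588, 635, 569, 619.8 and 585 CPM in heterozygotes, against 861, 740.4, 675, 783 and 715 CPM in wild types (log2 fold change -0.33 and SE 0.12, adjusted p = 0.377). The values of both groups were apart for Ndufs1, and so they were for Ndufs7, whose values stand with the exercise results (log2 fold change -0.30 and SE 0.13, adjusted p = 0.530). Ndufv1 (-0.25, adjusted p = 0.530) had overlapping groups. Fibroblast and macrophage marker sums were higher in these heterozygotes, as given above. Cardiac myocyte markers were lower for 7 of 10 (median log2 fold change -0.14) and endothelial markers higher for 10 of 10 (0.38), with 0 called in edgeR. The part of these markers in the values was not tested.

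At 3 months 0 of 37 members were called, where 0.192% of all genes were (0.167% higher and 0.0257% lower). In heterozygotes 24 members were higher and 13 lower (35.1% lower, beside 50.3% of all genes), with a median of 0.06 beside -0.00 over all genes. With 1 library left out the 13 ran from 7 (without heterozygote 1) to 16 (without wild type 3 or 4). It was 5 without heterozygotes 1 and 2, and 16 without the 3 libraries that held both Xist and Y-linked transcripts. The median ran from 0.02 (without wild type 4) to 0.11 (without heterozygote 5) when 1 library was left out. At an unadjusted p under 0.05 there were 3 higher and 1 lower, where 11% of all genes were below that p. The smallest p was that of Ndufb2, with 23.6, 14.8, 8.88, 2.82 and 7.92 CPM in heterozygotes, against 5.01, 6.11, 5.84, 10.1 and 5.18 CPM in wild types (log2 fold change 0.86 and SE 0.31, adjusted p = 0.266). Its log2 fold change was 0.02 without heterozygotes 1 and 2, a pair chosen after its values were seen, and 1.11 (adjusted p = 0.0343) without heterozygote 4. Ndufs5 (log2 fold change 0.36 and SE 0.16, adjusted p = 0.415), an accessory subunit facing the intermembrane space, Ndufa12 (0.27) and Ndufa4l2 (-0.63) followed, all with overlapping groups.

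Whether the genotypes differed in their change was tested as an interaction, the log2 fold change in heterozygotes minus that in wild types. For exercise 0 of 37 members were called in edgeR, where 0.0128% of all genes were, and 2 were lower at an unadjusted p under 0.05, a p that 4.91% of all genes were below, with the smallest p for Ndufa6, a matrix arm accessory subunit (difference -0.52 and SE 0.21, adjusted p = 0.969), and Ndufc1 (difference -0.44 and SE 0.18, adjusted p = 0.969), both negative, which means a lower change in heterozygotes. For age 0 of 37 were called in edgeR, where 0% of all genes were, and 1 was higher and 4 lower at an unadjusted p under 0.05, a p that 8.04% of all genes were below, with Ndufb2 (difference -1.23 and SE 0.44, adjusted p = 0.493) and Ndufs1 (difference -0.45 and SE 0.17, adjusted p = 0.524) first. Both counts were also 0 in limma-voom and DESeq2. The genes called with exercise or age in a single genotype are therefore not shown to differ between genotypes.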

How the data were processed

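Total RNA from cardiac myocytes was extracted with a column kit, and strand-specific libraries were prepared after removal of ribosomal RNA and read in pairs, per the labels' protocols. Trim Galore, HISAT2, featureCounts and the mm10 build are listed in the submitters' processing notes, and their versions and the strand setting of the counting are not given in the sources used here. The authors deposited whole-number counts per gene for all 30 libraries in one table of 52573 entries, of which 23 spike-in entries were left out. For 26 genes the symbol was restored from the gene identifier.

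Genes were filtered with edgeR's filterByExpr over the 6 groups, libraries scaled by TMM, and all groups fitted together (robust quasi-likelihood F test, 24 residual degrees of freedom, edgeR 4.0.16, limma 3.58.1, DESeq2 1.42.0, R 4.3.3). Adjusted p-values are Benjamini-Hochberg over 15587 genes. The scripts were tested on simulated data. Groups came from the sample titles. The text names members called, up to 8 in each direction by fold change, the 4 with the smallest p, the 7 core subunits and a few others, and up to 3 genes of each further list. The members and all lists were chosen with earlier results of these data known. Alternatives were another scaling, no filter, a replicate block, fewer genes, fewer groups, limma-voom, DESeq2, a stricter threshold and leaving out each library. The Xist covariate, the GC and length correction and leaving out named pairs or trios of libraries were chosen after seeing the data. Promoter windows came from RefSeq, and Ndufb1 was not analysed here. The values of 1 member, counted in the totals, are not reported here.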

Additional observations from a re-analysis of the deposited data

Results flagged for a closer look

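Among 168 sets of 5 libraries (28 genes in 6 groups), 9 held a single library far from the other 4 by Dixon's criterion, which chance alone marks in about 1 of 20 sets. Exercised heterozygote 4 was low for Ndufa3, with 161.6 CPM beside 258 to 295 CPM in the others, and for Ndufa7, with 139 CPM beside 183 to 194 CPM. Exercised wild type 1 was low for Ndufb11, with 105 CPM beside 153 to 155 CPM. Regular-activity heterozygote 5 at 6 months was high for Ndufb9, with 611 CPM beside 422 to 474 CPM, for Ndufs8, with 194 CPM beside 153 to 162 CPM, and for Ndufs4, with 144 CPM beside 113 to 120.4 CPM. Heterozygote 5 at 3 months was low for Ndufs6, with 157 CPM beside 221 to 239 CPM. For Ndufb2, wild type 3 at 6 months was low, with 6.12 CPM beside 7.80 to 8.40 CPM, and wild type 4 at 3 months was high, with 10.1 CPM beside 5.01 to 6.11 CPM.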

How the results depend on the processing

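No median of the members moved by more than 0.16 on the log2 scale, the pooled SD between libraries of a group. That SD is larger than several of the medians, such as -0.05 with exercise in wild types, so a change of sign could pass it. Without regular-activity wild type 4 that wild-type median became 0.01. No result changed sign while called. The count of members called with exercise in wild types, 9, became 3 at an adjusted p under 0.01, and 5 both with GC and length trends removed and without the 3 libraries holding Xist and Y-linked transcripts. It became 12 in limma-voom and 12 in DESeq2. In heterozygotes the 10 became 6 at 0.01, 15 in limma-voom, 15 in DESeq2, and 13 with GC and length trends removed. With age in heterozygotes the 7 became 13 in limma-voom, 10 in DESeq2 and 3 at 0.01. With age in wild types the 2 became 1 without a low-count filter and with GC and length trends removed, 5 in limma-voom and 5 in DESeq2, 0 at 0.01 and 0 without the 3 libraries. Between genotypes at 6 months limma-voom called 1 with exercise and 1 with regular activity. For all of these the cause was not tested.

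Leaving out each library in turn gave 6 to 9 calls with exercise in wild types and 7 to 16 in heterozygotes, 0 to 2 with age in wild types and 3 to 8 in heterozygotes, 0 to 1 between genotypes at 3 months (1 without heterozygote 4) and 0 to 1 between exercised genotypes (1 without wild type 5).

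The labels do not say whether replicate numbers pair the libraries. Same-numbered deviations correlated at -0.252 to 0.154, which shows no clear pairing but, with 5 libraries in a group, cannot exclude one. With the replicate number as a block, the calls were 6 with exercise in wild types, 9 in heterozygotes, 1 with age in wild types and 5 in heterozygotes. Another scaling moved the median of all genes by at most 0.038 on the log2 scale. The fewest counts per library were 39 for Ndufa4l2 and 41 for Ndufb2, both in heterozygotes at 3 months, so counting error is larger for these.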
